A study of Caenorhabditis elegans with 8 samples.

Results

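The regions described here are the 1-kb windows of the Caenorhabditis elegans genome in which none of the 8 libraries of the study placed a 5′ end. Windows began at multiples of 1000 on the 6 nuclear chromosomes, adjacent empty windows were merged into runs, and the windows were chosen by their number of 5′ ends, so that this number is a description of them and not a result. Of 100258 windows up to the last tagged base of each chromosome, 874 were empty in every library (0.872%), and they formed 304 runs.

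All libraries came from oocytes of the fer-1(b232) mutant grown at its restrictive temperature. In 7 libraries the DNA had been cut by the endogenous nuclease of these oocytes: 3 were sequenced from 1 end (fragments of 140 to 240, 90 to 140 and 40 to 90 bp) and 4 from both ends (130 to 430, 80 to 230, 50 to 130 and 20 to 80 bp). The remaining library held nucleosome core DNA of 150 bp made with micrococcal nuclease (MNase) and was sequenced from 1 end. There was 1 library per condition and no wild-type library among them, so no value below has a replicate error and a feature of the fer-1(b232) strain cannot be told apart from a feature of all worms. The age of the oocytes is not given in the labels.

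fer-1 encodes a membrane protein that sperm need to mature, and in such mutants with defective sperm the oocytes are ovulated unfertilised and keep copying their DNA. The 6 chromosomes of this worm have gene-dense centres and arms richer in repeated sequence. A short read from DNA that occurs in several identical copies cannot be assigned to any of them, whereas DNA that a strain lacks gives no read at all, and both leave an empty window on a map. A paired-end fragment can help to separate these cases, since a pair can be placed by whichever of its reads falls in unique sequence.

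The depth behind an empty window was high. The single-end lists held 7892011 tags for MNase and between 28451497 and 32660817 for the endo-cleaved libraries, and the paired-end lists held between 6097218 and 15509078 fragments. A median window held 1968 ends in the 8 libraries together, and the 5th percentile was 756. A count of 0 allows up to 3 ends, or 0.152% of the median window, and this limit covers counting error only. In the MNase library alone the same limit was 4% of its median window of 75 ends.

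Fewer windows were empty where fragments were long and read from both ends. The MNase library left 1508 windows empty, the single-end library of 40 to 90 bp 1335, that of 90 to 140 bp 1354 and that of 140 to 240 bp 1360. In the paired-end libraries 1229 windows were empty at 20 to 80 bp, 1170 at 50 to 130 bp, 1055 at 80 to 230 bp and 990 at 130 to 430 bp. These libraries held 12194436, 15926948, 31018156 and 30662862 5′ ends in the same order. Between the shorter and the longer size ranges, fragment size and depth cannot be told apart. The 140 to 240 bp single-end library had more 5′ ends than any paired-end library (32660817 against at most 31018156) and still left more windows empty than each of them. The 4 single-end libraries together missed 1284 windows, of which 410 held paired-end ends, while 13 windows with single-end tags held no paired-end end.

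**Figure D1:**
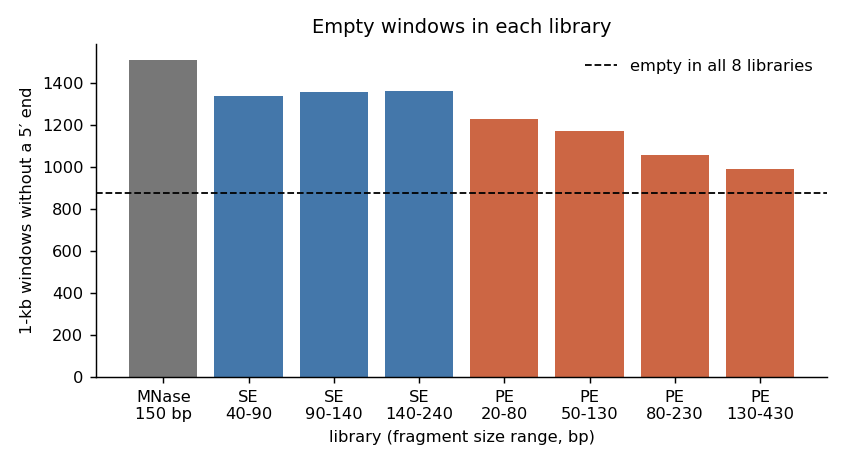
Number of 1-kb windows without a 5′ end (vertical axis) in each library (horizontal axis, SE single-end and PE paired-end, with the fragment size range in bp); the dashed line marks the 874 windows empty in all 8. The bars of the 4 paired-end libraries fall from 1229 to 990 as the fragments become longer, and their depth differed as well. The single-end bars lie between 1335 and 1508.

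At the threshold, the values passed from none to few without a gap. There were 49 windows with 1 end, 46 with 2, 26 with 3, 37 with 4 and 18 with 5, and these 176 windows held 457 ends, of which 425 were paired-end and 235 came from the 130 to 430 bp library. Windows that touched an empty window were mostly thinly tagged as well: their median was 135 ends, 310 of 566 held under 0.1 of the median window, and 82 held at least 50% of it.

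Most runs were short, and a few long ones held much of the empty sequence. A run of 1 window was seen 169 times, 66 runs had 2 windows, 30 had 3, 30 had 4 to 8, and 9 had 10 or more. Those 9 runs held 311 of the 874 windows. Measured base by base between the nearest 5′ ends, the tag-free stretches of the runs had a median of 2210 nt and ranged from 1046 to 75920 nt.

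Empty windows were most frequent on chromosome V, where 389 of 20920 (1.86%) were tag-free in 64 runs. Chromosome IV followed with 172 (0.983%) in 80 runs, and the other chromosomes held 78 (I, 0.518%), 85 (II, 0.556%), 72 (III, 0.522%) and 78 (X, 0.44%). The excess on V came from 2 places, described below, which held 290 windows, or 33.2% of all empty windows. Without them V had 99 tag-free windows, 0.473% of the chromosome.

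The runs lay mainly in the outer parts of the chromosomes, but not evenly at both ends. Of the empty windows 81.7% were in the outer parts of their chromosome, the first and last 33.3% of its length, which hold 66.7% of all windows. The outer share was 94.9% on I, 89.4% on II, 88.5% on X, 86.6% on IV and 79.4% on V. The first and the last part held 26 and 48 empty windows on I, 48 and 28 on II, and 81 and 68 on IV. On V they held 239 and 70, where the first part includes the longest gap described below, and on X 58 and 11. Chromosome III stood apart with 51.4%, since 35 of its 72 empty windows were in the middle part. At the left end of IV, 10 runs fell within the first 50 kb, and 40 of the first 42 windows held under 0.1 of the median. The first 1000 kb of X, where the median window held 1824 ends, had 24 empty windows in 8 runs.

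**Figure D2:**
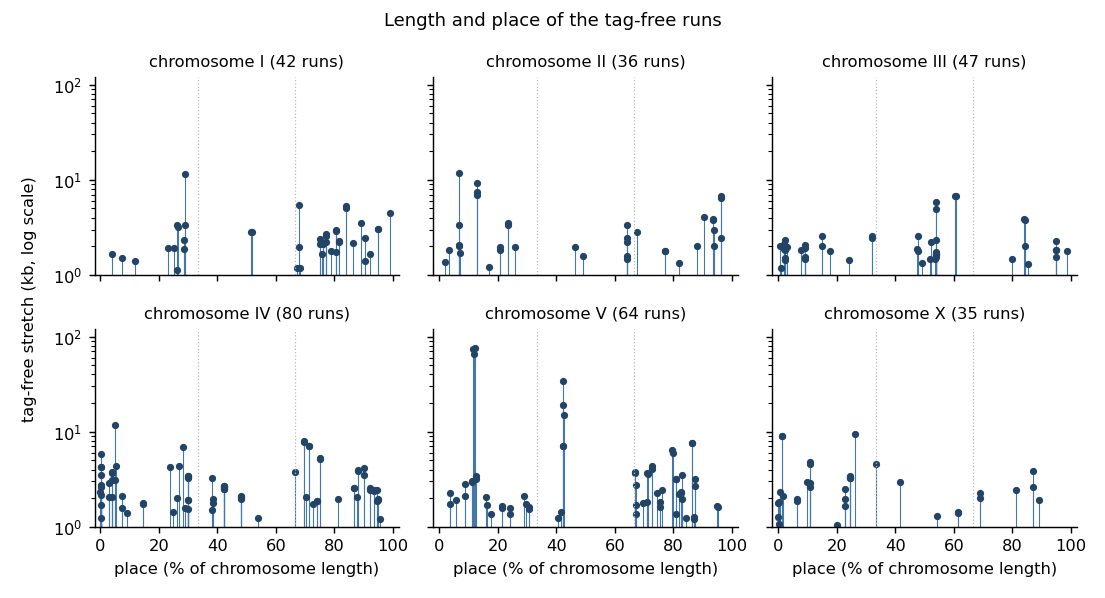
Length of the tag-free stretch of each of the 304 runs (vertical axis, kb, log scale) against the place of the run on its chromosome (horizontal axis, percent of chromosome length), 1 panel per chromosome; dotted lines set off the first and last 33.3%. The 2 clusters of long stretches on V, near 12% and 42% of its length, reach 75920 and 34183 nt, and no run on another chromosome exceeds 11878 nt.

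The coordinates below are those of the lists, counted from 1, and the genome build of the lists is not given in the sources used here. The last 5′ end on V lay at 20919486. No annotation of that build was used, so genes, exons and repeats at these positions are not named, and no sequence is shown.

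The longest gap was on V between 2346847 and 2563050, a span of 216204 nt that held 495 ends in all. It consisted of 3 tag-free stretches of 73138 nt (2346847 to 2419984), 65953 nt (2420453 to 2486405) and 75920 nt (2487131 to 2563050), the last being the longest of the genome. A single window of median density holds 3.98 times as many ends as this whole span. Both tagged islands within it were seen by most libraries.

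The first island of V measured 468 nt and held 96 ends: 0 in MNase, 6, 2 and 4 in the single-end libraries from short to long, and 6, 12, 22 and 44 in the paired-end libraries in the same order. Its 12 single-end tags began at 8 positions and together covered 33 nt, from 2420104 to 2420136. The paired-end ends spread over the whole island around that short core. In the second island, of 725 nt, there were 399 ends, with 10, 55, 63 and 69 in MNase and the single-end libraries and 28, 26, 60 and 88 in the paired-end libraries. Its 197 single-end tags began at 107 positions and covered 358 nt without a break, from 2486584 to 2486941, and the rest of the island held only paired-end ends.

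Beside this gap the coverage was ordinary on the left and thin on the right. In the 1 kb left of it there were 2133 ends, 1.08 times the median density (95% exact Poisson interval 1.04 to 1.13, counting error only), and the 8 libraries ranged from 0.927 (40 to 90 bp) to 1.97 (MNase). The 1 kb on the right held 273 ends, 0.139 of the median (0.123 to 0.156), with every library between 0.0828 and 0.252. Over 5 kb both sides were near the genome's density, 0.891 on the left and 0.85 on the right.

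The second gap on V, between 8813417 and 8897296, spanned 83880 nt and held 5 tag-free stretches. From left to right these measured 7047, 34183, 7148, 19103 and 14844 nt, and the islands between them held 52, 213, 53 and 64 ends. Single-end tags covered only 48, 46 and 44 nt of the first 3 islands. No single-end tag reached the fourth island (8881943 to 8882452), where 6 paired-end ends came from the 50 to 130 bp library, 18 from that of 80 to 230 bp and 40 from that of 130 to 430 bp.

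The order of lengths in this gap occurred a second time along the chromosome. When only single-end coverage was considered, the gap was made of 4 stretches of 7440, 34560, 7443 and 34748 nt. The first and the third of them differed by 3 nt, and the second and the fourth by 188 nt. The third island lay 42136 nt to the right of the first. Coverage was 1.45 times the median in the 1 kb to the left of the gap (1.4 to 1.51) and 0.265 in the 1 kb to the right (0.243 to 0.289). The libraries differed at both places: on the left MNase had 3.11 times its own median and the others 1.18 to 2.03 times, and on the right the paired-end libraries had 0.437 to 0.576 while MNase and the single-end libraries had 0.0496 to 0.147. Over 5 kb the pooled values were 0.982 and 1.01.

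Fragments from the paired-end libraries reached past the last single-end tag at every border of both gaps. To count such fragments, a border was set at the last base under a single-end tag, so that single-end tags inside are 0 by construction. A fragment was said to cross when 1 end lay outside and the other at least 50 nt inside. These borders lie outside the tag-free stretches given above, which hold no 5′ end by definition. At the outer borders of the first V gap 15 fragments crossed on the left and 9 on the right, reaching at most 195 and 134 nt inside. The 4 borders at its islands were crossed by 9, 28, 14 and 7 fragments. At the second gap 50 fragments crossed the left outer border and 7 the right one, and the 6 inner borders had between 1 and 45. Most crossing fragments were of the longest size range. At the left border of the second gap 38 of 50 came from the 130 to 430 bp library and 11 from the 80 to 230 bp library. At some borders the longest range gave a minority, as at 8862744, with 1 of 10. Window centres of ordinary coverage had the same order, with means of 19.6 in the 130 to 430 bp library and 9.75 in the 80 to 230 bp library. Oocyte DNA was thus listed across all 14 borders, but no fragment in the lists was longer than 550 nt and the interior of the long stretches was not reached.

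The same count was made for all members. The 304 runs lay in 291 stretches without single-end coverage, and another 555 such stretches of at least 1000 nt held no run. Beside the 582 borders the single-end density in 200 nt had a median of 0.266 times the genome's, and 224 borders had a flank of at least 0.5. At these 224 a median of 18 fragments crossed, against 30 at 83808 ordinary positions with the same flank, where the central 90% ranged from 12 to 56. No fragment crossed at 10 of the 224 borders (4.46%), beside 21 of the ordinary positions (0.0251%). At the 358 borders with a thinner flank the median was 6, and 54 had none.

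Crossing differed with fragment size. For this comparison ordinary positions were taken at steps of 20 kb, which gave 4199. Relative to them, the mean number of fragments per border was 8.43% in the 20 to 80 bp library and 33.2% at 50 to 130 bp. It was 57.8% at 80 to 230 bp and 70.4% at 130 to 430 bp. A short fragment that reaches 50 nt inside has little of its length outside. The rise with size may therefore be set in part by the rule for crossing, which was not tested. Of the fragments that overlapped a stretch by any length, 70.3% in the 130 to 430 bp library had a first or last 25 nt on tagged sequence at 1 end only, and 18.8% at neither end. The corresponding shares in the 20 to 80 bp library were 36.8% and 19.4%. Within the first 100 nt inside a tagged border there were 31.8 paired-end ends on average, then 7.7 in the next 100 nt and 1.88 between 200 and 400 nt.

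**Figure D3:**
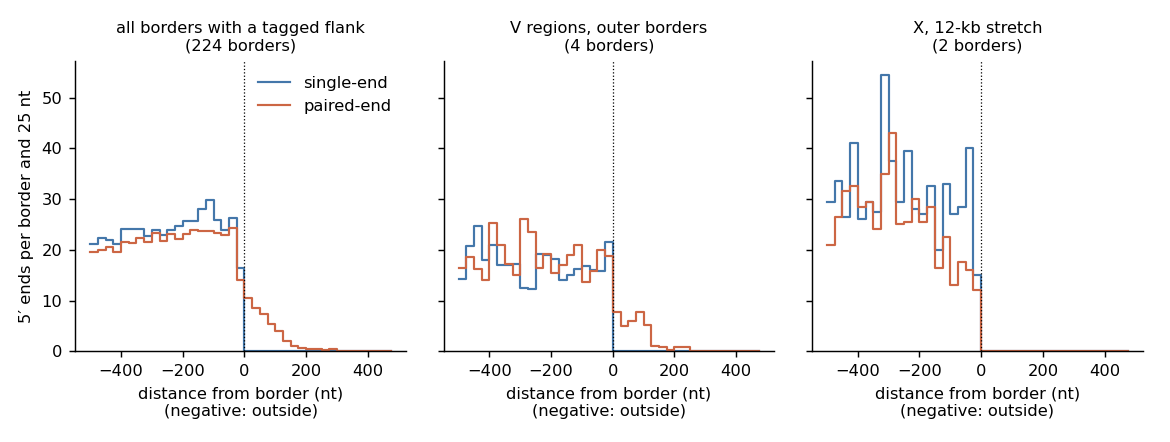
Mean number of 5′ ends per border in bins of 25 nt (vertical axis) against the distance from the border (horizontal axis, nt, negative values outside), for single-end (blue) and paired-end libraries (orange). Single-end ends stop at every border because the border was set by them. Paired-end ends continue for some 200 nt at the 224 borders with a tagged flank and at the 4 outer borders of the V gaps. They stop at the 2 borders of the 12-kb stretch on X, which was picked for having no crossing fragment.

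A single stretch with ordinary coverage on both sides was crossed by no fragment at either border. Among the 49 stretches with flanks of at least 0.5 on both sides, 45 were crossed at both borders, 3 at a single border and 1 at neither. With a reach of 100 nt in place of 50 the count was 2, the second being the stretch of 2890 nt on II described below, whose only crossing fragment reached 51 nt inside. The stretch without any, on X from 4639441 to 4651463 (12023 nt), contained the longest run of the chromosome (9486 nt between the nearest 5′ ends). Coverage beside it was ordinary: 198 single-end ends in the 200 nt on the left and 248 on the right, where the median density gives 210.4.

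Coverage outside came close to the border of the stretch on X in every library. On the left the last covered base of a tag or fragment outside lay 0 to 9 nt from the border in 7 libraries and 41 nt in the 130 to 430 bp library. On the right the first covered base lay 0 to 14 nt away in all 8. These distances do not measure a sharp stop, since they count only tags and fragments that ended outside. The border was set by the single-end tags, and the stretch was picked for having no crossing fragment. At the stretches on II and III described below, the distances on the left were 0 to 38 and 0 to 39 nt. In the 1 kb to the left of the stretch on X each library had 0.813 to 1.47 times its own median, and on the right 1.03 to 1.63 times. Inside, only 4 fragments of 1 count each were listed, of 60 to 154 nt, and no single-end tag. No other stretch with a run lay within 10 kb of it.

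This stretch was picked because no fragment crossed its borders. Its contrast with the V gaps, where fragments crossed all borders, restates that choice. A tagged flank with no fragment across was seen at 10 of 224 borders, its own included. Elsewhere on X, the left border at 12190920 had a flank of 1.09 and none across, and that at 1136202 a flank of 1.16 and none across. Whether the strain lacks the 12 kb of the picked stretch, carries another sequence there, or lost the positions in mapping cannot be told apart. Paired reads were placed only where they matched the reference perfectly, and a pair that joined both sides would exceed the 550 nt that the lists hold. Each 0 of the picked stretch allows up to 3 fragments, where ordinary positions had a median of 30. The borders with a tagged flank had a median of 18 and a 5th percentile of 1, and 7.14% of them had at most 1.

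**Figure D4:**
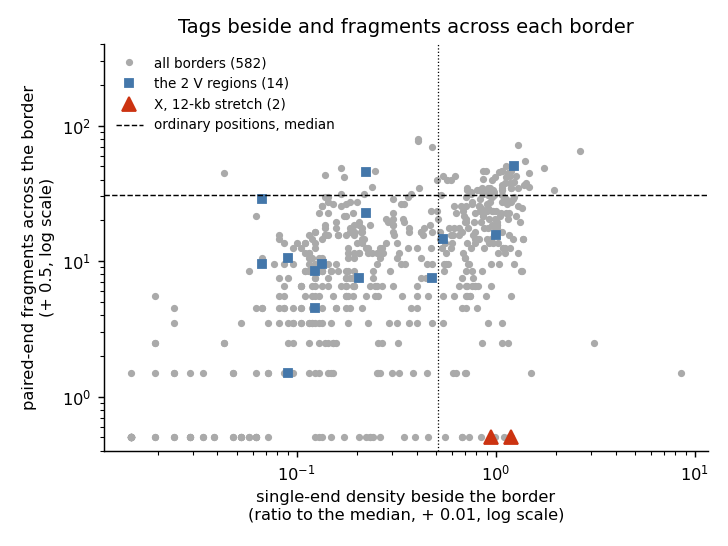
Paired-end fragments reaching at least 50 nt across each of the 582 borders (vertical axis, 0.5 added, log scale) against the single-end density in the 200 nt outside (horizontal axis, ratio to the genome's median, 0.01 added, log scale). Both borders of the stretch on X (triangles) have flanks near 1 and no fragment across, which is how the stretch was picked. The 14 borders of the V gaps (squares) have 1 to 50. The dashed line is the median of 30 at ordinary positions and the dotted line the flank of 0.5.

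A pair of shorter stretches came near that pattern with at most 1 crossing fragment at each border. On II, from 10336379 to 10339268 (2890 nt), 1 fragment crossed on the left and none on the right, and the flank was unusual: the 200 nt on the left held 1787 single-end ends, 8.49 times the median density, against 0.979 on the right. In the 1 kb on the left all libraries were raised, from 1.21 (130 to 430 bp) to 2.77 (40 to 90 bp). On III, from 11004579 to 11006247 (1669 nt), the counts were 0 and 1 with flanks of 0.727 and 0.689.

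Many stretches had a neighbour of similar length. Of 123 neighbouring stretches at most 10 kb apart, 55 (44.7%) had lengths within a ratio of at least 0.9, whereas 19 of 162 neighbours farther apart did (11.7%). With lengths required to lie within 3 nt, the counts were 34 of 123 (27.6%) and 1 of 162 (0.617%), and in 7 of the close pairs the lengths were equal. Length likeness was not used to choose the windows. Where both stretches had at least 3000 nt the shares were 60.3% of 58 close pairs and 14.3% of 28 distant ones.

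Several of these pairs were long, and those named here on IV and II differed by 1 or 2 nt. On IV, stretches of 8186 nt (12174876 to 12183061) and 8184 nt (12183110 to 12191293) stood 48 nt apart, and further right a pair of 7494 and 7495 nt (from 12471464 and 12479001) stood 43 nt apart. On II a pair of 7023 and 7024 nt began at 14711084 and 14718153. Other pairs had longer tagged sequence between them, as on V, where 2 stretches of 3561 nt (from 18293580 and 18302719) were separated by 5578 nt. The X run at 225961 to 234896 and the next, at 235397 to 244293, belonged to stretches of 9176 and 9335 nt with 72 nt between. These 2 stretches differed by 159 nt.

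**Figure D5:**
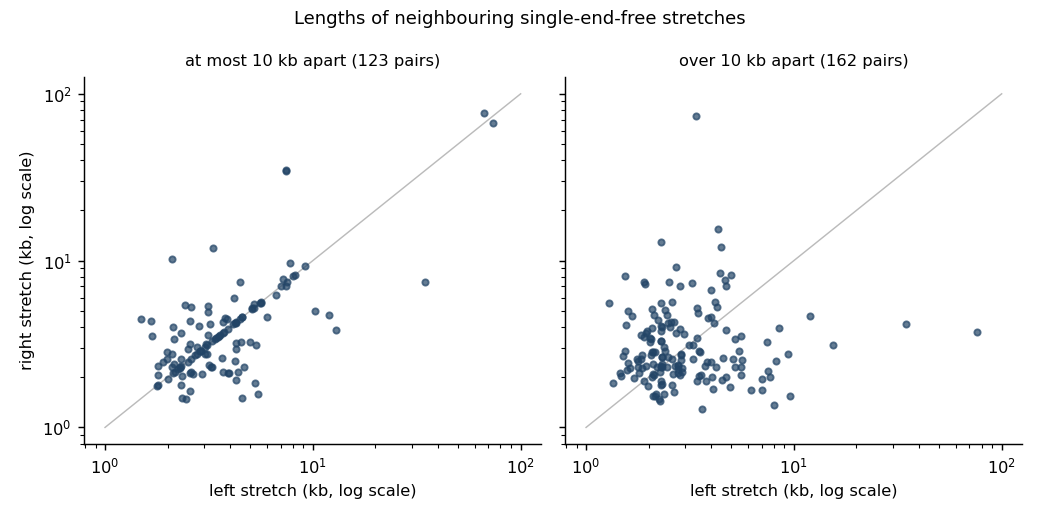
Length of the right stretch (vertical axis, kb, log scale) against the left one (horizontal axis, kb, log scale) for neighbouring stretches without single-end coverage, at most 10 kb apart (left panel, 123 pairs) and over 10 kb apart (right panel, 162 pairs); the grey line marks equal lengths. In the left panel 34 pairs lie within 3 nt of the line, and in the right panel 1 pair does.

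The tagged sequence between neighbours was often as short as a few tags. In 40 cases it measured at most 48 nt, which is the longest span that 25-nt tags can cover when all of them contain the same 2 adjacent bases, and 29 of the 40 measured 41 to 48 nt. Only 4 measured 49 to 100 nt. Single-end tags in such an island therefore all lay over a common position, and 3 of the 4 islands of the second V gap were of this kind, as was the first island of the first gap.

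Borders of stretches in like-length pairs were crossed by fragments nearly everywhere. Among the 108 stretches in these pairs, 103 borders had a flank of at least 0.5, with a median of 22 crossing fragments and 1 border with none (0.971%). The other 183 stretches had 121 such borders, a median of 15 and 9 borders with none (7.44%). In all, 11 of the 55 pairs had at most 48 nt between them.

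Between the stretches of like-length pairs the density was a median of 0.724 times the genome's, and in 2 pairs it exceeded 1.5. On III the 2309 nt between 2 stretches of 2890 nt (4431360 to 4434249 and 4436559 to 4439448) held 12622 ends, 2.78 times the median density. All 8 libraries were high there, from 2.63 to 3.38 times their own median, while the 1 kb outside the pair held 1.16 on the left and 0.864 on the right. On V the 1854 nt between stretches of 3735 and 3718 nt (from 2625494 and 2631083) held 6980 ends, 1.91 times the median, with libraries from 1.68 to 2.91 and outer flanks of 1.12 and 0.543. A higher copy number and a higher cleavage or recovery of these sequences cannot be told apart from the lists. The MNase library was raised in both, as were the endo-cleaved ones.

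The longest runs of I, II and III lay in wider stretches without single-end coverage, and fragments crossed both borders of each stretch. On I the run (4344590 to 4356165, 11576 nt) lay in a stretch from 4340895 to 4356364, which also held a run of 2 windows. The borders of this stretch, with flanks of 1.06 and 0.171, were crossed by 34 and 12 fragments. On II (1003282 to 1015159, 11878 nt) 33 and 13 crossed, with flanks of 0.96 and 0.204. The next long run of II, at 1976585 to 1985780, was the third of 3 adjoining stretches of 7221, 7723 and 9621 nt, separated by 37 and 47 nt. On III (8344964 to 8351751, 6788 nt) 23 and 7 fragments crossed, with flanks of 0.461 and 0.233. The left neighbour of this stretch on III was 328 nt longer. On IV (893736 to 905455, 11720 nt) the flanks were almost untagged, 0.019 and 0.133 of the median, with 0 and 7 fragments across, so that its left border gives no measure of whether DNA continued.

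For 8 of the 291 stretches no fragment crossed either border whatever the flank. In 7 of them at least 1 flank was under 0.5 of the median, which leaves the stretch on X as the exception. A lone position, with no other stretch within 10 kb, was not rare: 89 stretches had it, 24 of them of at least 3000 nt.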

How the data were processed

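The 8 lists were used as deposited. Per the labels, Bowtie 0.12.7 was used; per the study's methods, paired reads had to match a unique genome position perfectly, and the rule for single-end tags is not given in the sources used here. In the deposited single-end lists each row is a 25-nt tag with its strand, a tag count and a display score that was not used. The score that the authors gave sets only the grey shade in a browser. The deposited paired-end lists give each fragment and its read count. No build is named, and a gene table of another build was not used.

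The 5′ end of a tag, and both ends of a fragment, were counted in windows of 1000 nt. Stretches without single-end coverage had at least 1000 nt. Crossing fragments reached at least 50 nt inside, and flanks were 200 nt. Ordinary positions were window centres, 1 per kb, or 1 per 20 kb for the crossing counts of each library. They had over 0.9 of the surrounding 300 nt on either side covered and a flank of at least 0.5 of the median density. Density ratios divide ends per kb by the median window. The named regions were the 10 longest runs, the longest run of each chromosome and the runs of the V gaps; other regions in the text were chosen after their values were seen. Members and lists were chosen with earlier results of these data known. No test was made, since each condition had 1 library. Python 3.11.15, NumPy 2.4.6 and SciPy 1.17.1 were used, and the functions were tested on simulated data.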

Additional observations from a re-analysis of the deposited data

How the results depend on the processing

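No paired analysis was possible because each condition had 1 library and no result came from a test. Of 39 alternatives, 29 left a result within its limits and 10 moved it, and none turned a direction. The limits were wide for counts: 1284 in place of 874 windows and 453 in place of 304 runs were within them. For the outer share they were narrow, as 86% in place of 81.7% was not. The 874 empty windows became 2390 with windows of 500 nt and 278 with windows of 2 kb, as the unit counted changed, and ranged from 850 to 1284 otherwise. The 304 runs became 666 and 96 with those sizes and 503 with the 4 single-end libraries alone. The longest run kept 74 to 76 kb throughout. The share in the outer parts, 81.7%, was 67.3% when these were the first and last 25% of a chromosome (50% of all windows) and 86% without the V gaps. The density beside the V gaps, a median of 0.673 over 4 borders in 1 kb, was 0.936 in 5 kb. The 86% without the V gaps was chosen after seeing the data. So were the counts of stretches without crossing fragments and of like-length neighbours, together with their alternatives. A reach of 100 nt gave 2 stretches in place of 1 without crossing fragments (the stretch on II at 10336379 was added). A length ratio of at least 0.8 gave 56.1% of close neighbours in place of 44.7%. The share of unique 25-mers or 36-mers in empty windows was not run, since no genome of the lists' build was used. By depth, an empty window allows up to 3 ends.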
